A study of Mus musculus with 6 samples.

Results

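Nuclei from the forebrain of WT and Npc1-/- mice were profiled by single-nucleus RNA sequencing at 16 days of age (P16), with 3 mice per genotype and no treatment. Npc1-/- mice lack the lysosomal cholesterol transporter NPC1 in every cell and carry the Npc1nih allele, and the litters were F1 hybrids of BALB/cJ and C57BL6/J parents. The deposited matrix joins 6 libraries, named here by the number at the end of each barcode, and the sources used here do not tie any number to a mouse. WT and Npc1-/- nuclei could therefore not be compared, no p-value was computed, and values are given for all nuclei together and for each library. The 9 genes described here act in the complement cascade or in the TREM2 pathway and were taken by name from the 32285 genes of the matrix: C1qa, C1qb, C1qc, C3, C4b, C3ar1, Itgam, Trem2 and Tyrobp.

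Complement marks debris, pathogens and, in the developing brain, synapses for removal by phagocytes. In the classical pathway C1q, a molecule assembled from the chains encoded by C1qa, C1qb and C1qc, binds a surface and leads to cleavage of C4 and then of C3. Fragments of C3 are read by phagocytes through complement receptor CR3, whose alpha subunit CD11b is encoded by Itgam, and through the C3a receptor encoded by C3ar1. TREM2 is a lipid-sensing receptor of microglia and other macrophages that signals through the adaptor DAP12, encoded by Tyrobp. Microglia are the resident macrophages of the brain and its best-known source of C1q, whereas C4 is also known from astrocytes.

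All 9 genes are protein-coding, and their identifiers were found in the matrix and in the GENCODE annotation of GRCm38. The 3 C1q genes lie side by side on the minus strand of chromosome 4 within 18.7 kb. C1qb (ENSMUSG00000036905) spans chr4:136880129-136886187, C1qc (ENSMUSG00000036896) spans chr4:136889804-136893065 and C1qa (ENSMUSG00000036887) spans chr4:136895917-136898803. C3 (ENSMUSG00000024164) is at chr17:57203970-57228136 and C4b (ENSMUSG00000073418) at chr17:34728380-34743882, both on the minus strand. C4a, a near-identical copy that can share reads with C4b, starts 65.2 kb beyond it and is annotated as a processed transcript. Trem2 (ENSMUSG00000023992) is at chr17:48346401-48354147 and Tyrobp (ENSMUSG00000030579) at chr7:30413760-30417585, both on the plus strand. C3ar1 (ENSMUSG00000040552) is on the minus strand at chr6:122847138-122856161. Itgam (ENSMUSG00000030786), on the plus strand at chr7:128062640-128118491, overlaps Gm49368 on the same strand, so its counts are uncertain by whatever reads the counting gave to that gene.

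RefSeq transcription starts on GRCm38.p6 were at hand for 6 of the 9 genes. The windows before the start of C1qb, C1qc and Itgam are shown as examples from genes high in the same class of nuclei. They hold the 6 letters GAGGAA, the core of sites read by PU.1-type myeloid transcription factors. The Trem2 window also holds them but is not shown. The windows shown were chosen for holding these letters, so their presence there is no evidence about these genes. Each window is read 5′ to 3′ on the gene's own strand, with GAGGAA or its reverse complement TTCCTC in capitals. They cover chr4:136886201-136886450 (minus strand) for C1qb, chr4:136893066-136893164 (minus strand) for C1qc and chr7:128062390-128062639 (plus strand) for Itgam.
C1qb: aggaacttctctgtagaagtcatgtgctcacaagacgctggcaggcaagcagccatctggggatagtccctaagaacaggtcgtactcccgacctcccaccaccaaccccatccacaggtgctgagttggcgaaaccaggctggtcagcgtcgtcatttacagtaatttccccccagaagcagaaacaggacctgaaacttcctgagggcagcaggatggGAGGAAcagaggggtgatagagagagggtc
C1qc: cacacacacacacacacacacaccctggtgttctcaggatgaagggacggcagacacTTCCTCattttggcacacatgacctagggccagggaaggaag
Itgam: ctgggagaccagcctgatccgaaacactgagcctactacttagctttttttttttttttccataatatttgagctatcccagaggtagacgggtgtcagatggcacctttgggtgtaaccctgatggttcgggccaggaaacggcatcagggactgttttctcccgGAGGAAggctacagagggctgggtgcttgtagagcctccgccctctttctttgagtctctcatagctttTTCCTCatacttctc
The C1qc window has 99 bases because 151 of the 250 bases before its RefSeq start lie inside the GENCODE gene model and were left out. The Itgam window held the motif at 2 places, and those of C1qb, C1qc and Trem2 at 1 place each. C3 and C3ar1 had none in their windows. Over 32817 mouse promoter windows of 250 bases, 23.3% held GAGGAA on either strand, a share that does not apply to the shorter C1qc window. The letters TTNNGCAA, a C/EBP-type pattern found in 9.57% of windows, occurred once before C3, and TATAAA, found in 12.4%, once before C3ar1.

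The libraries held between 8217 and 16118 barcodes, with medians of 4469 to 5439 UMIs (unique molecular identifiers, each counting 1 captured RNA molecule). After 11 barcodes with at least 10% mitochondrial UMIs were left out, 75867 nuclei remained. A nucleus was assigned to a class where it held UMIs of at least 3 of 8 marker genes and at least 2 more markers than of any other list. None of the 9 genes was a marker. This gave 33693 nuclei in 13 classes (44.4%), while 28678 of the ungated nuclei had enough markers but too small a lead over another list. Over all nuclei kept, whether ungated or taken by another class, 1381 held 3 or more myeloid markers with no lead.

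The myeloid-like class held 2870 nuclei with a median of 2562 UMIs. Within it, 2271 nuclei were microglia-like and 107 macrophage-like by a pair of further lists, and 492 were neither. Microglia-like nuclei had 278 CPM (UMIs of a gene per 1000000 UMIs) of P2ry12, 350 of Cx3cr1 and 376 of Siglech, whereas macrophage-like nuclei had 1826 CPM of Mrc1, 1864 of F13a1 and 66 of Lyve1. These genes are on the lists that defined the classes, so their levels describe the gate and are no independent check of the names. UMIs of other cells were present in both. At least 2 excitatory neuron markers were found in 29.99% of microglia-like and 27.1% of macrophage-like nuclei, and at least 2 astrocyte markers in 28.4% and 28.0%. Lymphocyte markers (at least 2 of 6) were found in 0.308% of microglia-like nuclei and granulocyte or monocyte markers in 0.0881%. The 872 nuclei just inside the myeloid gate and the 702 just outside it had similar levels, with 19.0 and 21.8 UMIs of C1qa and 44.7 and 38.6 UMIs of Itgam per 100 nuclei.

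Most of the genes were at higher levels in the myeloid-like class, which made up 3.78% of nuclei. It held 14.2% (Tyrobp) to 27.7% (Trem2) of all UMIs of C1qa, C1qb, C1qc, C3ar1, Trem2 and Tyrobp, and 53.0% of those of Itgam. Ungated nuclei held 46.7% (Trem2) to 54.5% (Tyrobp) of the UMIs of those genes, and 35.8% for Itgam. C1qa, C1qb, C1qc, C3ar1, Itgam, Trem2 and Tyrobp were each at least 4-fold higher in CPM in myeloid-like than in excitatory neuron-like nuclei, which should lack them and stand here for RNA free in the droplets. C4b was 3.08-fold higher (95% interval 2.39 to 3.95), and C3 had too few UMIs to be placed. These 7 of 8 genes with at least 30 UMIs in the compared classes stand against 9.13% of all 18705 genes so tested. The median log2 ratio was 4.55 over the 8 genes and 0.49 over all genes. In CPM each of the 8 was higher in myeloid-like nuclei in 6 of 6 libraries, a share that was not counted over all genes. For C4b this depended on the scale. Per 100 nuclei, library 5 had 1.00 UMIs of C4b in myeloid-like and 1.26 in excitatory neuron-like nuclei. The log2 ratio of C4b over all libraries was 1.62 in CPM and 0.16 per nucleus. Excitatory neuron-like nuclei were the deepest class, with a median of 9497 UMIs. Of 12 classes outside the myeloid-like, they had the lowest CPM of C1qa, C1qb, C1qc, C4b and Tyrobp. The CPM ratios of those genes would thus be lower over any other of these classes. Per 100 nuclei, C1qa was at 21.4 UMIs in myeloid-like and 4.09 in excitatory neuron-like nuclei. The same 7 genes passed in microglia-like nuclei alone (8.37% of all genes) and all 8 in macrophage-like nuclei (8.05%). All intervals here are exact and cover counting error only, since the libraries are not replicates of a known group. In such summed nuclei, a lower share of nuclei that express a gene and less RNA per nucleus cannot be told apart.

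**Figure D1:**
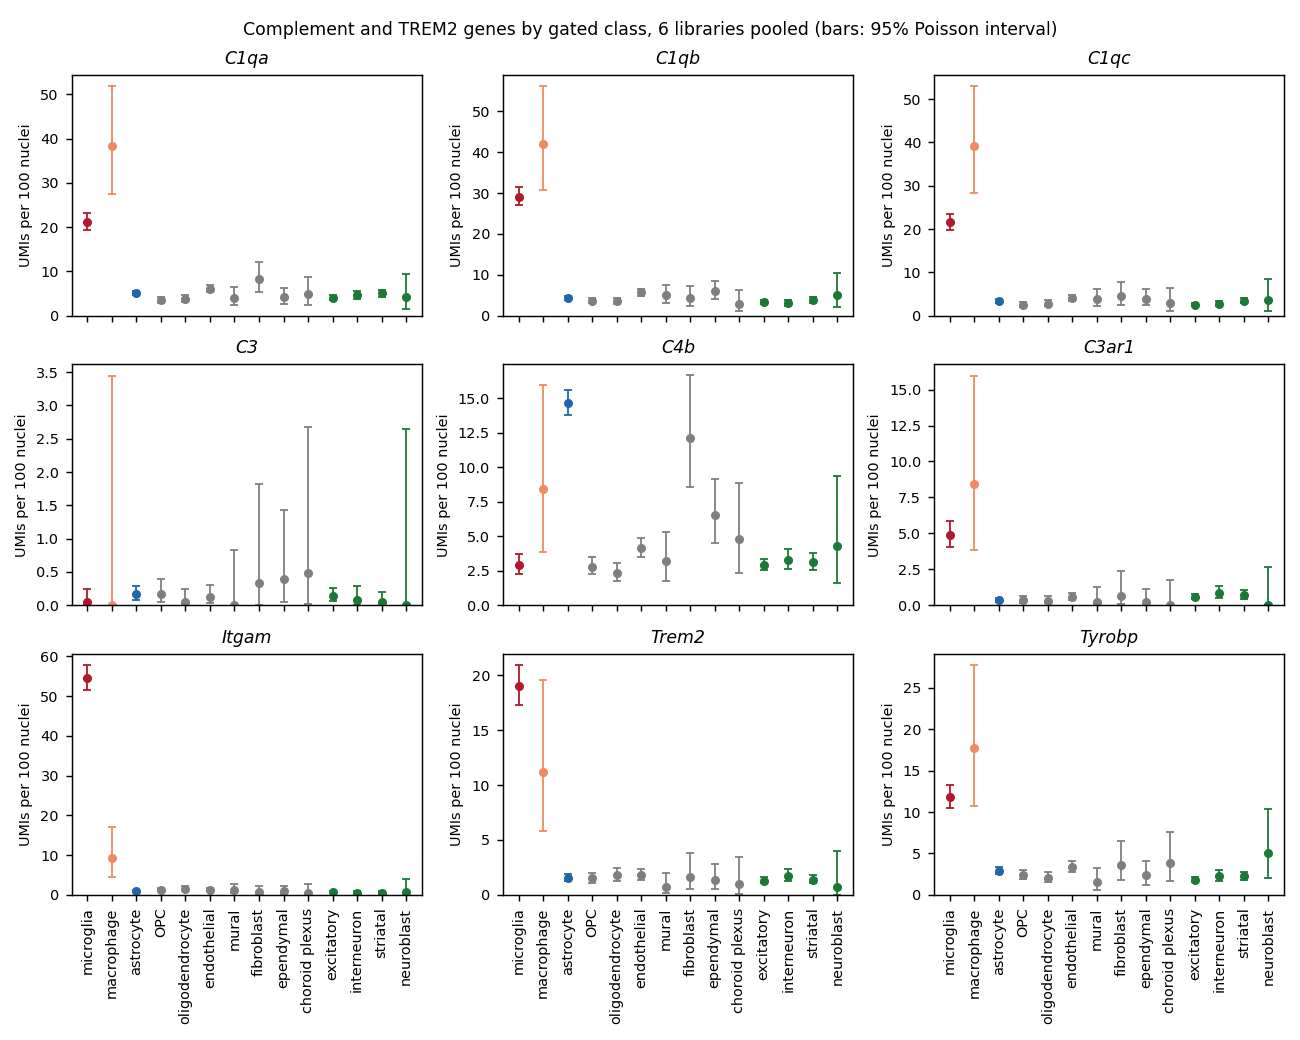
Level of each of the 9 genes in 14 gated classes, in UMIs per 100 nuclei with the 6 libraries summed (points, with 95% Poisson intervals as bars). Microglia-like and macrophage-like nuclei stood above every other class for 7 genes, C4b was highest in astrocyte-like nuclei at 14.7 UMIs per 100 nuclei, and C3 stayed below 0.5 in every class.

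The C1q chains were found in microglia-like nuclei of every library. C1qa had 52.4 CPM (47.8 to 57.3), with 60.3, 44.5, 48.4, 45.8, 57.9 and 74.6 CPM in libraries 1 to 6. C1qb had 71.9 CPM (66.5 to 77.6), with 72.5, 54.2, 77.7, 58.1, 79.5 and 115 CPM. C1qc had 53.1 CPM (48.5 to 58.0), with 51.9, 50.1, 49.3, 48.4, 62.5 and 70.4 CPM. Library 6 was the highest for each chain, and the lowest was library 2 for C1qa and C1qb and library 4 for C1qc. In excitatory neuron-like nuclei the highest library reached 5.44 CPM of C1qa, 5.20 of C1qb and 3.84 of C1qc. Over myeloid-like nuclei as a whole the CPM ratio to excitatory neuron-like nuclei was 14.4-fold (12.5 to 16.6) for C1qa. It was 23.6-fold (20.4 to 27.3) for C1qb and 23.2-fold (19.6 to 27.7) for C1qc.

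The receptors of C3 fragments were next. Itgam, the CR3 alpha subunit, had 135 CPM in microglia-like nuclei (127 to 143), with 159, 145, 127, 91.6, 179 and 146 CPM in libraries 1 to 6. Library 4 was lowest and library 5 highest, and excitatory neuron-like nuclei had at most 1.45 CPM in any library. Its CPM ratio of myeloid-like over excitatory neuron-like nuclei was 163-fold (126 to 215), the largest of the 8. C3ar1, the C3a receptor, had 12.1 CPM (9.92 to 14.5) from 111 UMIs, with 10.7, 5.62, 17.2, 8.23, 17.0 and 18.6 CPM. Libraries 2 and 4 were the lowest, at 11 and 16 UMIs. The myeloid-like over excitatory neuron-like CPM ratio of C3ar1 was 26.2-fold (18.5 to 37.8).

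Trem2 and its adaptor gene Tyrobp were both detected in microglia-like nuclei. Trem2 had 46.9 CPM (42.6 to 51.6), with 44.2, 38.3, 54.9, 41.2, 43.1 and 65.3 CPM in libraries 1 to 6. Tyrobp had 29.1 CPM (25.7 to 32.8), with 22.1, 23.0, 32.6, 20.6, 40.9 and 49.7 CPM. Library 6 was highest for both genes. Relative to excitatory neuron-like nuclei, myeloid-like nuclei had 37.4-fold (29.9 to 47.2) more Trem2 and 17.9-fold (14.6 to 22.1) more Tyrobp in CPM.

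The spread between libraries in microglia-like nuclei depended on the scale. Among the 6 genes with at least 120 UMIs, the highest library exceeded the lowest by at least 2-fold in CPM for 2, C1qb (2.12-fold) and Tyrobp (2.42-fold). Over all 9680 genes so tested the share was 26.1%. Without library 6 neither gene passed, and without library 2 Tyrobp alone did. The other ratios were 1.46 for C1qc, 1.68 for C1qa, 1.70 for Trem2 and 1.96 for Itgam. Counted per nucleus instead, 0 of the 6 genes passed 2-fold, against 62.0% of all genes. C1qb then ranged from 23.2 to 33.3 UMIs per 100 nuclei and Tyrobp from 8.26 to 14.4. Depth moved with these values: microglia-like nuclei of library 6, highest in CPM for 5 of these 6 genes, had the lowest median at 1729 UMIs, and those of library 4 the highest at 3559.5. Its part in the spread was not tested.

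**Figure D2:**
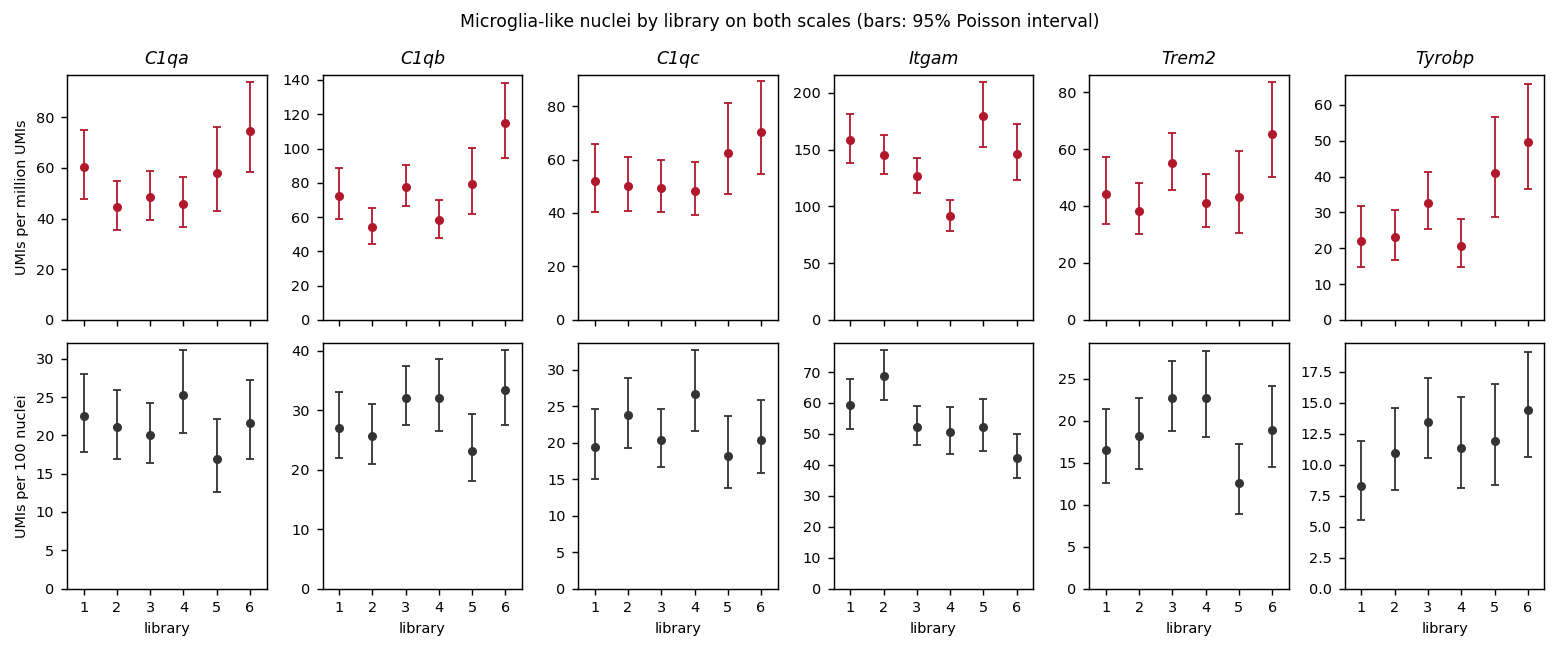
Levels in microglia-like nuclei of libraries 1 to 6, as CPM in the upper row and as UMIs per 100 nuclei in the lower row, with 95% Poisson intervals as bars. Library 6 is highest in CPM for the C1q chains, Trem2 and Tyrobp, and is lowest for Itgam per 100 nuclei at 42.3.

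The same held between nuclei. Microglia-like nuclei were split by their UMIs into 3 groups of 757, with medians of 1716, 2601 and 5511 UMIs. From the shallowest to the deepest group, Itgam was at 253, 193 and 90.2 CPM but at 42.3, 50.9 and 70.8 UMIs per 100 nuclei. C1qb was at 140, 104 and 46.6 CPM, and Trem2 was at 73.5, 75.1 and 31.8 CPM. The median number of excitatory neuron markers was 0, 1 and 2 in these groups, and its part in the CPM difference was not tested.

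Few of these transcripts were captured per nucleus. With every nucleus thinned to 2000 UMIs, which left 1665 of 2271 microglia-like and 6962 of 7039 excitatory neuron-like nuclei, Itgam had a UMI in 27.0% of microglia-like nuclei and 0.230% of excitatory neuron-like nuclei. For C1qb the shares were 15.7% and 0.790%, for C1qc 12.2% and 0.646%, and for C1qa 12.01% and 0.876%. Trem2 gave 11.5% and 0.302%, Tyrobp 6.91% and 0.488%, and C3ar1 3.30% and 0.0862%. These 7 genes are the ones called above from the same UMIs, so the direction of their shares adds no further support. Unthinned, the microglia-like shares were 38.5% for Itgam, 24.2% for C1qb and 16.5% for Trem2, at medians of 2601 and 9497 UMIs per nucleus in the 2 classes. At the thinned depth, 39.6% of microglia-like nuclei had none of the 9 genes, 37.5% had 1, 17.0% had 2 and 4.62% had 3. Of excitatory neuron-like nuclei 96.0% had none of them.

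The 3 chains were seldom caught together, which the depth limits. All 3 had a UMI in 5 of 1665 thinned microglia-like nuclei (0.3003%, 0.0976 to 0.699), 2 chains in 5.71% and none in 66.4%. A C1qc UMI was present in 18.0% (12.9 to 24.0) of nuclei with a C1qa UMI and in 11.4% (9.82 to 13.1) of nuclei without one. C1qb was present in 17.0% (12.1 to 22.9) of nuclei with C1qa and 15.5% (13.7 to 17.5) of nuclei without it, and C1qc in 15.3% (11.2 to 20.3) of nuclei with C1qb and 11.6% (9.98 to 13.4) without. Trem2 was present in 17.2% (12.3 to 23.2) of nuclei with C1qc and 10.7% (9.13 to 12.4) of nuclei without it. The intervals of each pair overlapped, which does not show that the shares are equal, and the differences were not tested. For Itgam and C1qa the shares were 26.5% (20.5 to 33.2) with it and 27.0% (24.8 to 29.4) without it. The ratio of variance to mean over these nuclei lay between 0.981 and 1.15 for all 9 genes. Itgam had the highest ratio and also the highest mean, 0.341 UMIs per nucleus. At means this low the ratio stays near 1 for most spreads between nuclei, so it does not measure that spread.

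Macrophage-like nuclei had more of the C1q chains and less Itgam than microglia-like nuclei. C1qa had 96.4 CPM against 52.4, or 0.88 on the log2 scale (0.38 to 1.34), and all 6 libraries were higher. Library 4 had only 5 macrophage-like nuclei and library 6 only 9, too few for them to count as agreement. How many of all genes were higher in all 6 was not counted. C1qc had 98.7 CPM against 53.1, a log2 ratio of 0.89 (0.40 to 1.35), and was higher in 5. C1qb had 106 CPM against 71.9, with a log2 ratio of 0.56 (0.09 to 0.99), but was higher in 3 libraries only. Itgam had 23.5 CPM against 135, or -2.52 on the log2 scale (-3.58 to -1.64), from 10 UMIs. All 6 libraries were lower, but on 1, 5, 1, 2, 1 and 0 UMIs, too few for single libraries to count as agreement. At 2-fold it was the 1 gene of 8 called higher in microglia-like nuclei, against 8.58% of 14148 genes.

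C4b was the 1 gene of 8 at least 2-fold higher in macrophage-like nuclei, against 6.36% of genes. That call rested on 9 UMIs, a log2 ratio of 1.54 (0.35 to 2.55), with all 9 UMIs in libraries 1, 2 and 3. Without nuclei that held 2 or more markers of another list, the C4b log2 ratio was 0.32. Trem2 had 28.2 CPM in macrophage-like nuclei from 12 UMIs, a log2 ratio of -0.73 (-1.70 to 0.09), and was lower in 5 of 6 libraries. Without library 3 or without library 4 it was at least 2-fold higher in microglia-like nuclei. Tyrobp (0.62, -0.14 to 1.29) and C3ar1 (0.81, -0.36 to 1.79) had intervals that held 0. The libraries had 17, 28, 22, 5, 26 and 9 macrophage-like nuclei, so single-library levels there are coarse.

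**Figure D3:**
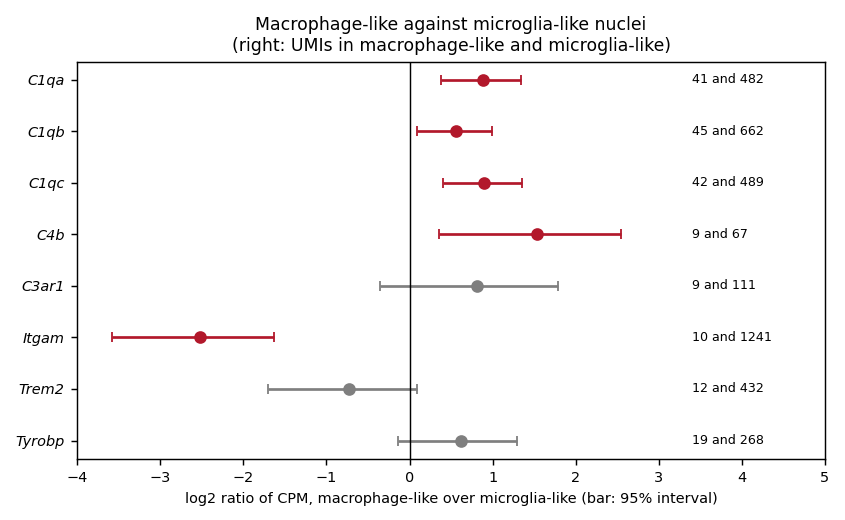
Log2 ratio of CPM in macrophage-like over microglia-like nuclei for the 8 genes with enough UMIs (points, with 95% intervals as bars), with the UMIs behind each ratio at the right. C1qa and C1qc lie above 0, Itgam lies at -2.52, and the intervals of Trem2, Tyrobp and C3ar1 hold 0.

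Outside myeloid-like nuclei the 7 genes were found at low levels per nucleus. Over 12 classes, C1qa had 3.54 to 8.20 UMIs per 100 nuclei (median 4.47), Trem2 had 0.680 to 1.83 (median 1.45) and Itgam 0.481 to 1.61 (median 0.913). The myeloid-like class had 21.4, 17.8 and 49.7. Tyrobp ranged from 1.59 in mural-like to 5.04 in neuroblast-like nuclei, the latter from 7 UMIs. Endothelial-like nuclei had 6.05 UMIs of C1qa per 100 nuclei (5.25 to 6.94) and oligodendrocyte progenitor-like nuclei 3.54 (2.90 to 4.28), so the level was not equal everywhere. None of the 8 genes passed 4-fold over excitatory neuron-like nuclei in CPM in oligodendrocyte progenitor-like (5.26% of all genes), oligodendrocyte-like (6.10%), interneuron-like (2.24%) or striatal projection neuron-like nuclei (2.29%). Fibroblast-like nuclei passed it for C1qa, C1qc, C4b and Tyrobp (12.1% of all genes), mural-like nuclei for C1qb, C1qc and Itgam (10.6%), and endothelial-like (12.9%), choroid plexus-like (11.1%) and neuroblast-like nuclei (4.78%) for Tyrobp. Except for C4b and for Tyrobp in endothelial-like nuclei, each of these calls rested on 25 UMIs or fewer. These classes were also shallower, with medians of 2833 (mural-like) to 4884 UMIs (choroid plexus-like) against 9497, and the part of depth in the calls was not tested.

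In 16 nuclei at least 8 UMIs of the C1q chains were counted together. Of these, 13 were ungated, 2 endothelial-like and 1 microglia-like, and their median was 19829.5 UMIs against 4957 over all nuclei. The richest, an ungated nucleus of library 2 with 44022 UMIs, had 19 UMIs of C1qa, 11 of C1qb, 8 of C1qc and 7 of Tyrobp, beside 6 of 8 myeloid and 8 of 8 oligodendrocyte markers. All 16 had at least 2 myeloid markers. Most of these nuclei were deep and taken by no class. Both traits follow in part from the rules. A raw count of UMIs picks deep nuclei, and the gate leaves out nuclei with markers of several lists.

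C4b, whose product is the next component after C1q, followed a different pattern and was highest in astrocyte-like and fibroblast-like nuclei. Astrocyte-like nuclei had 1088 of its UMIs, 28.0% of all, and 31.8 CPM (29.9 to 33.8) against 2.71 (2.35 to 3.10) in excitatory neuron-like nuclei. The ratio was 11.7-fold (10.1 to 13.7; 3.55 on the log2 scale), and C4b was the 1 gene of 8 past 4-fold in this class, where 10.1% of all genes passed. C4b was also higher in astrocyte-like than in microglia-like nuclei (log2 ratio 2.13, interval 1.77 to 2.51), oligodendrocyte progenitor-like nuclei (2.41, 2.09 to 2.75) and the endothelial-like class (1.87, 1.62 to 2.14). All 6 libraries had this direction for each of these classes. Among 7409 astrocyte-like nuclei, 6562 had no C4b UMI, 672 had 1, 128 had 2, 35 had 3 and 12 had 4 or 5.

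By library, astrocyte-like nuclei had 20.9, 20.3, 48.9, 43.1, 17.1 and 41.1 CPM of C4b from 127, 163, 381, 231, 72 and 114 UMIs. The highest library exceeded the lowest 2.86-fold. Excitatory neuron-like nuclei had 1.39, 2.76, 5.04, 4.90, 1.08 and 2.01 CPM in the same libraries, so the ratio of the classes ran from 7.36 to 20.4 and was above 4 in each. The lowest astrocyte-like library lay above the highest excitatory neuron-like library, a separation that was not counted over all genes. All 5 tested genes passed 2-fold between libraries in astrocyte-like nuclei, against 18.4% of 13573 genes: C4b, C1qa, C1qb, C1qc and Tyrobp. This spread was not particular to astrocyte-like nuclei. In excitatory neuron-like nuclei the highest library exceeded the lowest 4.66-fold for C4b, 2.82-fold for C1qa and 4.04-fold for C1qb. There it did so 3.55-fold for C1qc and 6.31-fold for Tyrobp.

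A pair of smaller classes also held C4b. Fibroblast-like nuclei, whose cells line the meninges and vessels, had 34.2 CPM (24.0 to 47.1) from 37 UMIs, and their ratio to astrocyte-like nuclei was 1.07 (0.752 to 1.49). The order of the 2 classes is thus not resolved. Ependymal-like nuclei, which line the ventricles, had 13.7 CPM (9.43 to 19.2) from 33 UMIs and passed 4-fold over excitatory neuron-like nuclei, as did 14.1% of all genes. Macrophage-like nuclei had 21.2 CPM (9.67 to 40.2), an interval that overlapped those of the astrocyte-like, fibroblast-like and ependymal-like classes. Lower in value were mural-like (9.70, 5.30 to 16.3) and choroid plexus-like nuclei (8.87, 4.25 to 16.3). Next were endothelial-like (8.68, 7.31 to 10.2) and microglia-like nuclei (7.28, 5.64 to 9.24). The intervals of these lower classes overlapped one another. All but the microglia-like interval also overlapped those of ependymal-like and macrophage-like nuclei, so the order there is not resolved. Relative to C1qa, the C4b UMIs per C1qa UMI were 2.89 (2.57 to 3.26) in astrocyte-like nuclei. The ratio was 1.57 (0.882 to 2.86) in ependymal-like and 1.48 (0.867 to 2.56) in fibroblast-like nuclei. It was 0.616 to 0.792 in the neuron, oligodendrocyte lineage and endothelial classes measured. Macrophage-like nuclei had 0.220 (0.0938 to 0.459) and microglia-like nuclei 0.139 (0.106 to 0.180). Per nucleus, C4b in microglia-like nuclei (2.95 UMIs per 100, 2.29 to 3.75) was not distinguishable from excitatory neuron-like nuclei (2.93, 2.54 to 3.35). C4a, which could share reads with C4b, had 196 UMIs in gated nuclei and 0.789 CPM in astrocyte-like nuclei.

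**Figure D4:**
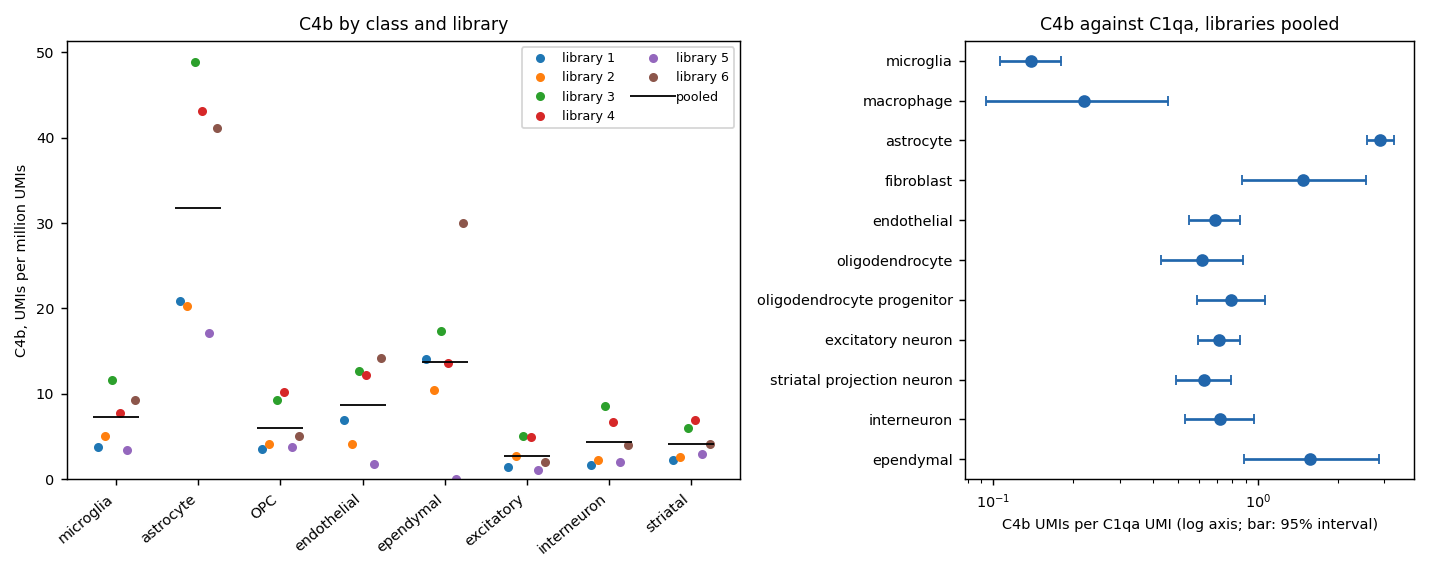
Left, C4b in CPM for libraries 1 to 6 (points) and for all libraries together (black lines) in 8 classes. Right, C4b UMIs per C1qa UMI on a log axis with 95% intervals as bars, where astrocyte-like nuclei reach 2.89 and microglia-like nuclei 0.139.

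C3, the central component that every complement pathway cleaves, had few UMIs in every class. In all, 118 UMIs were counted in 106 of 75867 nuclei, with 16, 21, 34, 29, 7 and 11 in libraries 1 to 6. Gated nuclei held 43, among them 12 in astrocyte-like, 10 in excitatory neuron-like and 3 in myeloid-like nuclei. Microglia-like nuclei had 1 UMI, and macrophage-like nuclei had 0, which allows up to 2.80 UMIs per 100 nuclei (3 counts). Astrocyte-like nuclei had 0.351 CPM (0.181 to 0.613) and excitatory neuron-like nuclei 0.131 (0.0630 to 0.242), intervals that overlap. A single ungated nucleus of library 3 held 9 of the UMIs, and 109 were left without it. It had 41055 UMIs, all 8 oligodendrocyte markers and 5 myeloid markers. Which cells express C3 was not detectable at this depth.

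Further genes of both pathways were described in 4 lists with 61 genes. Of the complement activation list, 11 of 21 genes were tested and 1 passed 4-fold in myeloid-like nuclei, a share near the 9.13% of all genes, the scavenger receptor gene Colec12. It had 867 CPM in macrophage-like, 55.3 in microglia-like and 1150 in fibroblast-like nuclei. C8g (2.06-fold) and C2 (1.79-fold) came next. The median log2 ratio of this list was 0.16, below the 0.49 of all genes. C2, the protease partner of C4, had its highest level in fibroblast-like nuclei, at 12.9 CPM from 14 UMIs.

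Among complement regulators, none of the 3 genes described here passed 4-fold in myeloid-like nuclei, where 9.13% of all genes did. Serping1, the C1 inhibitor gene, had 3.99 CPM in myeloid-like nuclei and 60.9 in fibroblast-like nuclei. Cd59a, which protects membranes from lysis, had 5.23 CPM in myeloid-like and 27.9 in endothelial-like nuclei. Csmd1, a large neuronal gene, had 3281 CPM in myeloid-like and 7456 CPM in excitatory neuron-like nuclei.

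The receptor and signalling lists stood higher. Of 6 tested complement receptor genes 4 passed, against 9.13% of all genes, with a median log2 ratio of 5.30 against 0.49. Itgb2, whose product pairs with CD11b, had 8.16 CPM in myeloid-like nuclei from 92 UMIs and was 88.7-fold above excitatory neuron-like nuclei. The C5a receptor genes C5ar2 and C5ar1 had 4.97 and 7.80 CPM, and C5ar1 had 75.2 CPM in macrophage-like against 3.91 in microglia-like nuclei. Itgax also passed. Cd93 did not, and was highest in endothelial-like nuclei at 116 CPM. In the TREM2 list 12 of 14 tested genes passed, against the same 9.13%, with a median log2 ratio of 5.25. Vav1 had 86.2 CPM and Spi1, which encodes PU.1, had 79.2 CPM in myeloid-like nuclei. Ms4a4a had 195 CPM in macrophage-like and 0.435 in microglia-like nuclei. Adam10, a protease that sheds TREM2, and Apoe, a TREM2 ligand, did not pass, and Apoe had 712 CPM in myeloid-like and 1228 in astrocyte-like nuclei.

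**Figure D5:**
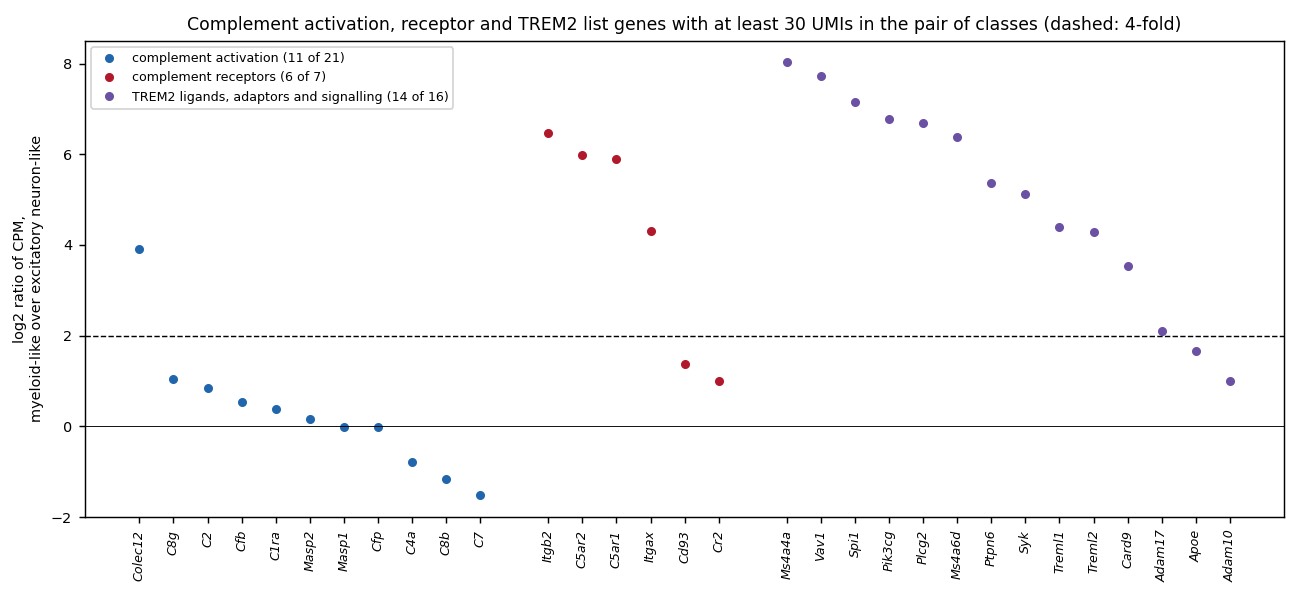
Log2 ratio of CPM in myeloid-like over excitatory neuron-like nuclei for the genes of the complement activation, complement receptor and TREM2 lists with at least 30 UMIs in the 2 classes, grouped by list; the dashed line marks 4-fold. Receptor and TREM2 list genes lie mostly above the line, with medians of 5.30 and 5.25, and activation genes lie mostly near 0, with Colec12 above the line.

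The genes whose levels over the 14 classes were most like those of each member were found by Pearson correlation of log2(CPM + 1). These values are descriptions over classes that share their libraries and free RNA. C1qb was most like Laptm5 (r = 0.986), Ptpn6 (0.982) and Fcer1g (0.979), and C1qc most like Fcer1g (0.983), Laptm5 and Ptpn6 (both 0.979). C1qa was most like Pik3ap1 (0.970), Gm26740 (0.970) and Laptm5 (0.961). Trem2 was most like Spi1 (0.978), Cd86 and Tnfaip8l2 (both 0.971), and Itgam like Fgd2 (0.977), Gm34589 (0.975) and Il10ra (0.974). C3ar1 was most like Themis2 (0.974), Slfn8 and Cd48 (both 0.970), and Tyrobp like Morc3 (0.982), Osbpl11 (0.960) and Ctss (0.957). C4b was most like Myoc (0.945), Fmo1 (0.939) and Mrpl55 (0.929), of which Myoc had 44.4 CPM and Fmo1 45.2 CPM in astrocyte-like nuclei.

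In the 120 myeloid-like nuclei with a UMI of Gpnmb or Lgals3, genes of lipid-laden phagocytes, C3ar1 was higher than in the other 2750 (log2 ratio 1.98, interval 1.33 to 2.59), as were Tyrobp (0.93, 0.35 to 1.46) and Trem2 (0.55, 0.02 to 1.04). Itgam had a log2 ratio of -1.27 (interval -1.84 to -0.75), and the intervals of the C1q chains held 0. These ratios are of CPM. The share of all genes with such ratios was not counted, so they cannot be read as particular to these genes. Per 100 nuclei C1qa was at 34.2 UMIs (24.5 to 46.4) against 20.8 (19.2 to 22.6), whereas the intervals of C1qb and of C1qc overlapped. C4b had 19.8 CPM (9.89 to 35.4) from 11 UMIs against 7.74 (6.17 to 9.60) from 83 UMIs. Its log2 ratio within library 3 was 0.83 (-0.72 to 2.11). The libraries contributed 7, 6, 54, 28, 1 and 24 of these nuclei, so the ratios are pooled over unequal libraries. Within libraries 3, 4 and 6 the log2 ratio of C3ar1 was 1.42, 2.64 and 1.66, with intervals above 0. Tyrobp had 0.73, 1.66 and -0.13 and Trem2 0.49, 1.09 and -0.13, with intervals above 0 in library 4 alone. Itgam had -1.26, -0.40 and -2.004, and its interval held 0 in library 4. The nuclei included 18 macrophage-like and 56 of neither kind. Their median was 3456 UMIs against 2524.5 in the other myeloid-like nuclei, and the part of depth in these ratios was not tested. Within the 46 that were microglia-like the CPM ratios of C3ar1, Tyrobp, Trem2, Itgam and the C1q chains all had intervals that held 0.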

How the data were processed

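Forebrain nuclei of 3 WT and 3 Npc1-/- mice were isolated from frozen tissue and sequenced with 10x Chromium 3′ chemistry. The authors deposited 1 matrix of raw UMI counts per gene and nucleus, not normalized, that joins 6 libraries. The file header names Cell Ranger as its writer, in a version other than the 2.1.1 in the submitters' processing notes, which also name mm10. The study's methods describe alignment with STARsolo to GRCm38, empty-droplet and multiplet removal, and a mitochondrial limit. The sources used here do not say whether the deposited matrix precedes those filters, which annotation release it used or whether intronic reads were counted. It was therefore used as deposited, with nuclei under 10% mitochondrial UMIs, and no further doublet caller was run. Each library held 51343653 to 107583300 UMIs, and 631 barcode sequences occurred in more than 1 library, at most 3.

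Counts of nuclei in a class were summed and scaled to CPM or to 100 nuclei. The gates were fixed lists of 8 markers (at least 3 and a lead of 2; within myeloid-like nuclei at least 2 and a lead of 2). Ratios have exact conditional binomial intervals, levels Poisson intervals and shares Clopper-Pearson intervals, all at 95% and for counting error only. A gene was called at 4-fold over excitatory neuron-like nuclei or 2-fold between the myeloid classes or libraries, with at least 30 UMIs in a pair of classes or 120 over libraries, and more than 3 UMIs in the higher class. A gene at 0 was given the limit of 3 counts. Named pathway genes were, per list, the 3 with the highest myeloid-like ratio and the 1 with most UMIs in other glial and vascular classes, and other named ones were chosen after their values were seen. A result of the complement regulator list is not reported here, nor are that list's count and median. Likeness used genes with at least 200 UMIs and a pseudocount of 1 CPM. The 9 genes, the lists and the comparisons were chosen with earlier results of these data known. No test between genotypes was run, and libraries were not treated as replicates. Alternatives varied the gate, depth, mitochondrial filter, scaling, library weights, free-RNA subtraction, minimum and libraries. The counting code was tested on simulated data. Tools were Python 3.11.15, numpy 2.4.6, scipy 1.17.1, pandas 2.3.3 and matplotlib 3.10.9, and R 4.3.3 with edgeR 4.0.16 for TMM factors only. Gene positions are from GENCODE on GRCm38 and promoter sequences from RefSeq on GRCm38.p6.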

Additional observations from a re-analysis of the deposited data

How the results depend on the processing

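The 7 genes at least 4-fold higher in myeloid-like than in excitatory neuron-like nuclei stayed at 7 under all 16 alternatives. The size of their ratios depended on the scale. Per nucleus the log2 ratios of all 7 were lower, from 2.39 for C1qa to 5.89 for Itgam, against 3.85 and 7.35 in CPM. Itgam was at least 2-fold higher in microglia-like than in macrophage-like nuclei under all 17, with log2 ratios of macrophage-like over microglia-like nuclei from -3.43 to -1.71. That count of 1 became 2, with Trem2 added, for the median of the 6 libraries, and leaving out each library gave 1 to 2 (2 without library 3 or library 4). The count of 1 higher in macrophage-like nuclei became 2 with the looser gate (C3ar1 and C4b), the stricter gate (C1qa and C4b), without nuclei under 2000 UMIs (C1qa and C4b), with the median of libraries (C3ar1 and C4b), and without nuclei holding 2 or more markers of another list (C1qa and C1qc, with C4b lost). Leaving out each library gave 1 to 3, with 2 without library 1 or library 2 and 3 without library 5. C1qa stayed higher in macrophage-like nuclei under all 17 (log2 ratio 0.76 to 1.28), as did C1qb (0.40 to 0.97) and C1qc (0.68 to 1.10). The 2 genes at least 2-fold apart between libraries in microglia-like nuclei became 1 (Tyrobp) with the stricter gate and without nuclei under 2000 UMIs, 0 per nucleus and 5 with no minimum of UMIs, where C3, C3ar1 and C4b enter on few counts. The count stayed at 2 with other genes under the looser gate (C3ar1 and Tyrobp, with C1qb lost) and without nuclei holding 2 or more markers of another list (C1qb and Itgam, with Tyrobp lost). Leaving out each library gave 0 to 2, with 0 without library 6 and 1 without library 2. The C4b log2 ratio of astrocyte-like over excitatory neuron-like nuclei, 3.55, was 3.21 with the looser gate, 3.29 without nuclei holding other markers, 3.08 with TMM scaling and 2.33 per nucleus, and 3.45 to 3.71 with each library left out. TMM factors were 0.723 for excitatory neuron-like and 1.09 for myeloid-like sums. The per-nucleus values differ by construction, since excitatory neuron-like nuclei hold more UMIs, and the cause of the other moves was not tested. No result changed direction.

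No paired analysis was possible because the libraries carry no sample or replicate label, and the planned comparison of WT with Npc1-/- nuclei, with or without a replicate block, was not run. The median of libraries could not be applied to the spread between libraries, and subtraction of excitatory neuron-like CPM could not be applied to ratios over that class. Depth limits C3 altogether and shares of nuclei with several of these transcripts, and the number of nuclei limits macrophage-like levels in single libraries.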

Other observations

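Libraries could not be assigned to a genotype, so the following are values by library with no comparison of groups. C4b in astrocyte-like nuclei was at 20.9, 20.3, 48.9, 43.1, 17.1 and 41.1 CPM in libraries 1 to 6. The median of UMIs per astrocyte-like nucleus lay between 2732.5 and 4440. Interneuron-like nuclei had 1.69, 2.21, 8.55, 6.68, 2.08 and 4.03 CPM of C4b in the same order. How many of all genes varied likewise between libraries was not counted. Per 100 astrocyte-like nuclei libraries 1 to 6 had 9.53, 9.90, 25.97, 22.5, 6.07 and 15.2 UMIs of C4b. In endothelial-like nuclei C4b UMIs per C1qa UMI were 0.645, 0.327, 0.680, 1.21, 0.286 and 1.57 in libraries 1 to 6, and in excitatory neuron-like nuclei 0.388, 0.533, 0.926, 1.13, 0.471 and 1.05.

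The share of myeloid-like nuclei with Gpnmb or Lgals3 was 1.63%, 1.16%, 8.40%, 6.17%, 0.25% and 5.62% in libraries 1 to 6, from 7, 6, 54, 28, 1 and 24 nuclei. Of all nuclei, 4.62%, 4.73%, 0.926%, 0.952%, 4.54% and 1.23% were oligodendrocyte-like in the same order. Microglia-like nuclei made up 2.55%, 2.56%, 3.52%, 2.89%, 2.80% and 4.05%.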
